A study of Mus musculus with 2 samples.

Results

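The genes described here are 10 that make bile acids or carry them into cells, taken by symbol from a liver expression table of 24054 genes. They comprise 5 cytochromes P450 that hydroxylate sterols (Cyp7a1, Cyp7b1, Cyp8b1, Cyp27a1 and Cyp39a1), 3 enzymes that process or conjugate the side chain (Amacr, Slc27a5 and Baat) and 2 sodium-dependent bile acid transporters (Slc10a1 and Slc10a2). All 10 were found in the table, and all were above 10 TPM (a share of all transcripts that is corrected for transcript length) in both libraries. The libraries were made from livers of Pgrmc1 KO (Pgrmc1 -/Y) and WT male C57BL/6 mice, 8 to 12 weeks old. Pgrmc1 encodes a heme-binding membrane protein that binds cytochromes P450. The KO lacked exons 1 and 2 in the whole body, through a floxed allele made in C57BL/6N and recombined by Sox2-Cre, which acts in the early embryo. RNA of 5 mice per genotype was pooled in equal masses (2.5 µg each), and 1 library per genotype was sequenced. The labels name no treatment, and the time of day and feeding state at which these livers were taken are not given in the sources used here.

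Bile acids are made from cholesterol in hepatocytes. The classic route starts with Cyp7a1, the rate-limiting 7α-hydroxylase, and Cyp8b1 directs its products to cholic acid. The alternative route starts with Cyp27a1 in mitochondria, whose oxysterol products are 7α-hydroxylated by Cyp7b1, while Cyp39a1 does the same for 24-hydroxycholesterol. Bile acids lower their own synthesis through the nuclear receptor FXR (Nr1h4) and its target SHP (Nr0b2) in liver, and through the gut hormone FGF15. Synthesis also follows the time of day.

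Pooling leaves 1 value per genotype, so differences among mice are hidden, nothing below has a replicate check, and no p-value is given. A change is log2((KO TPM + 1)/(WT TPM + 1)), which understates the change of low genes. The interval beside a change is a 95% Clopper-Pearson interval for the KO to WT ratio of the authors' means, obtained from estimated reads, and it covers only counting error. The deposited means correspond to about 22086688 reads on genes in KO and 29710410 in WT. Pgrmc1 was at 0.68 TPM in the library labelled KO and 949.49 TPM in the library labelled WT, which follows the labels. A gene was counted as higher or lower when its fold reached 1.4 upward or 0.6 downward.

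Among the bile acid genes, Cyp7a1 was higher in the KO pool by 2.04-fold. Cyp8b1 stood at 1.38 times WT and Cyp39a1 at 0.790 of WT, both inside the fold thresholds. The remaining 7 lay between log2 changes of -0.11 and 0.19. By the fold rule 1 of 10 members was higher and 0 of 10 were lower. Of the 22847 genes above 0 TPM in both libraries, 0.665% passed the rule as higher and 0.166% as lower, and among those averaging 10 TPM or more the shares were 0.772% and 0.273%. The first pair of shares is diluted. A posterior mean TPM above 0 does not require reads, and the authors' means list only 16318 genes. Many of the others are too low to reach the fold with a pseudocount of 1. The median change of the 10 members was 0.02, and 0.015 without Cyp7a1. For all 11623 genes averaging 1 TPM or more the median was -0.01. Of the members, 6 were above 0 and 4 below, and 4 lay within 0.1 of 0, against 60.3% of the 6235 genes averaging 10 TPM or more. The sign of Cyp7b1 among them depends on the scaling. Counting intervals of 6 members did not hold 0, against 33.3% of genes at that level. These shares are not like for like, because the interval narrows with depth and most members are far above 10 TPM. Slc27a5 left 0 out with a change of only 0.049. In bulk liver, fewer cells of a type and less RNA per cell cannot be told apart.

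**Figure D1:**
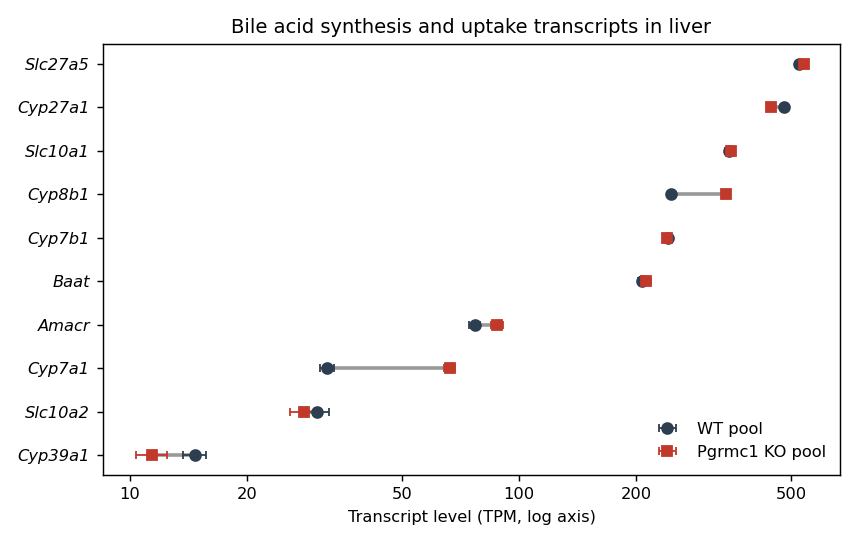
Transcript level of each of the 10 genes (TPM, log axis) in the WT pool (circles) and the Pgrmc1 KO pool (squares), with 95% counting intervals as bars and 1 pooled library per genotype. The gap between the pools is widest for Cyp7a1, from 32.04 TPM (WT) to 66.28 TPM (KO).

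Cyp7a1 (Entrez 13122; GRCm38 chromosome 4, 6265612 to 6275632, minus strand, 6 exons) was at 66.28 TPM in the KO pool against 32.04 TPM in WT. The counting intervals of these levels, 64.2 to 68.4 TPM and 30.8 to 33.3 TPM, did not overlap. The log2 change was 1.03 (interval of the ratio of means 0.99 to 1.13), from 3740 estimated reads in KO and 2422 in WT. Cyp7a1 was the only member to pass the fold rule. Of the 6235 genes averaging 10 TPM or more, 34 had a change as high or higher, a rank that here and below includes the gene itself. The 3 genes with the nearest log2 change, over these 2 libraries, were Cyp2b10, a xenobiotic-metabolizing P450, the small nucleolar RNA Snora47 and Saa3, an acute-phase protein. Cyp2b10 was at 18.24 TPM in the KO pool against 8.7 TPM in WT (0.99), and Saa3 at 20.72 and 9.3 TPM (1.08). Snora47 was at 79.55 and 37.29 TPM (1.07), values that rest on 1 estimated read in KO and 0 in WT. The 6235 ranked genes thus include some with almost no reads, and 14 of them were at 0 TPM in at least 1 library.

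Cyp8b1 (Entrez 13124; chromosome 9, 121914356 to 121916305, minus strand), the sterol 12α-hydroxylase, is a gene of 1 exon. Its level was 340.09 TPM in the KO pool against 246.3 TPM in WT, from 8532 and 8260 estimated reads. The log2 change was 0.46 (interval 0.44 to 0.52), and 65 of 6235 genes were as high or higher. Its fold of 1.38 was just under the threshold of 1.4, and it stayed short of 1.4 from the authors' means as well (log2 ratio 0.48). The interval spans the log2 value of 1.4, so within counting error it is not settled whether Cyp8b1 reaches the threshold. In TPM, the 93.79 gained by Cyp8b1 exceeded the 34.24 gained by Cyp7a1. Of Cyp7a1 and Cyp8b1 only Cyp7a1 passed the fold rule, which 0.772% of genes averaging 10 TPM or more passed as higher.

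Cyp8b1 did not pass the fold rule, but its interval left out 0. Slc10a1, the uptake transporter whose level was nearly equal in the pools, had an interval that held 0. The promoter sequences of both are shown as description only, and any part of them in the change of either gene was not tested. They are the 250 bases before each RefSeq gene start on GRCm38.p6, read 5′ to 3′ on the gene's strand, at chr9:121916306-121916555 (minus strand) and chr12:80968706-80968955 (minus strand). Capitals mark the letters TATAAA, which read TTTATA where they lie on the other strand.
Cyp8b1: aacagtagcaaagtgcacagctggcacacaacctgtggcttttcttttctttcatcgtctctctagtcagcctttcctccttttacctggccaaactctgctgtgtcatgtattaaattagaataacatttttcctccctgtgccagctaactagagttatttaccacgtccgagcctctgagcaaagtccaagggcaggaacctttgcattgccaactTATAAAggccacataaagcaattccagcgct
Slc10a1: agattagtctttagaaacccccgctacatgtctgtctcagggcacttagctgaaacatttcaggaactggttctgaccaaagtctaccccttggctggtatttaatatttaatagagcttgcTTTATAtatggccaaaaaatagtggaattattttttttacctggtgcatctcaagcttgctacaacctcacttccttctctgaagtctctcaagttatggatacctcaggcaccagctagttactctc
The match in Cyp8b1 was on the gene's strand, 31 to 26 bases before the start, the usual place of a TATA box. In Slc10a1 it was on the other strand, 128 to 123 bases before the start. TATAAA, added after the sequences were read, occurred in 12.4% of 32851 promoter windows of the same length. Neither printed window held AAGGTCA, an extended nuclear receptor half-site (4.08% of windows), GTTAAT, a half-site for HNF1 (6.43%), TTATGTAA, the D-box (0.819%), or CACGTG, the E-box (6.02%), on either strand, which says only that these letters are not in this window. A second RefSeq start of Slc10a1 lies inside the gene, and the 250 bases before it (chr12:80968080-80968329, minus strand, 52% G and C) held none of these letters, TATAAA included. G and C made up 44.8% of the Cyp8b1 window and 40.8% of the Slc10a1 window printed. RefSeq promoter entries were at hand for 4 of the 10 members, and Cyp7a1 was not among them.

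The other hydroxylases, Cyp27a1, Cyp7b1 and Cyp39a1, were not higher in the KO pool. Cyp27a1 (chromosome 1, 74713148 to 74737897, plus strand, 9 exons), the mitochondrial sterol 27-hydroxylase, was at 444.5 TPM in the KO pool against 478.87 TPM in WT. Its log2 change was -0.11 (interval -0.13 to -0.057), and 1444 of 6235 genes, 23.2%, were as low or lower. Cyp7b1 (chromosome 3, 18071944 to 18243890, minus strand, 6 exons), the oxysterol 7α-hydroxylase, was at 240.09 TPM in the KO pool against 240.57 TPM in WT. The change of Cyp7b1 was -0.0029, with an interval of -0.034 to 0.057 from 6755 and 9052 estimated reads. An interval this narrow reflects the depth of the gene and not the spread between mice. Cyp39a1 (chromosome 17, 43667372 to 43751431, plus strand, 12 exons), the 24-hydroxycholesterol 7α-hydroxylase, had the lowest level of the members, 11.37 TPM in the KO pool against 14.66 TPM in WT. Its change of -0.34 (interval -0.53 to -0.19) rested on 467 and 809 estimated reads, and 137 of 6235 genes were as low or lower. It did not reach the fold of 0.6.

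**Figure D2:**
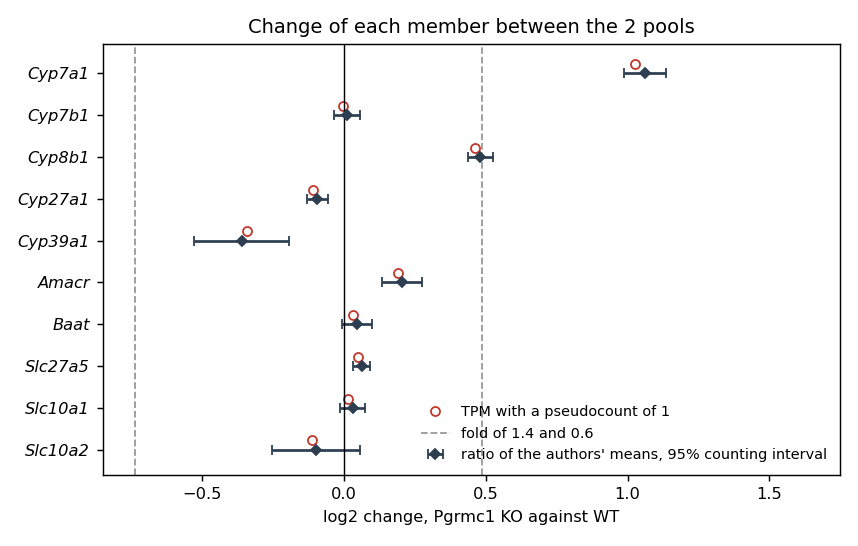
Log2 change of each of the 10 genes between the pools, as TPM with a pseudocount of 1 (open circles) and as the ratio of the authors' means (diamonds, bars are 95% counting intervals), with dashed lines at folds of 1.4 and 0.6. Only the points of Cyp7a1 lie beyond a dashed line, and those of Cyp8b1 lie just inside it with a bar that crosses it. The bars of Cyp7b1, Baat, Slc10a1 and Slc10a2 cross 0.

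Ratios between members of 1 library do not depend on the scaling between libraries. Cyp7a1 stood at 0.276 of the Cyp7b1 level in KO and 0.133 in WT, a log2 difference of 1.05 (interval 0.96 to 1.14). Against Cyp27a1 the ratio of Cyp7a1 was 0.149 in KO and 0.0669 in WT, a difference of 1.16 (interval 1.07 to 1.24). Cyp7a1 was thus higher relative to both Cyp7b1 and Cyp27a1. Cyp8b1 stood at 0.765 of Cyp27a1 in KO and 0.514 in WT, a difference of 0.57 (interval 0.52 to 0.63). Summed over the 5 hydroxylases, 1102 TPM in KO stood beside 1012 TPM in WT.

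The 3 side chain and conjugation enzymes had changes above 0, and 0 of 3 passed the fold rule. Amacr (chromosome 15, 10981756 to 10996624, plus strand, 5 exons), the racemase that prepares the side chain for shortening in peroxisomes, was at 87.71 TPM in the KO pool against 76.78 TPM in WT. The change of Amacr was 0.19 (interval 0.13 to 0.28), and 337 of 6235 genes were as high or higher. Slc27a5 (chromosome 7, 12988346 to 12998192, minus strand, 10 exons), the bile acid CoA ligase, had the highest level of the members, 540.53 TPM in the KO pool against 522.45 TPM in WT. Its change of 0.049 had an interval of 0.033 to 0.092, and 25.7% of genes were as high or higher. Baat (chromosome 4, 49489416 to 49507915, minus strand, 4 exons), which joins the activated acid to taurine or glycine, was at 212.12 TPM in the KO pool against 207.39 TPM in WT. For Baat the change of 0.032 had an interval of -0.0047 to 0.099, which held 0. These last enzymes act in sequence, and the ratio of Baat to Slc27a5 was 0.392 in KO and 0.397 in WT, a log2 difference of -0.016 (interval -0.076 to 0.043).

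The uptake transporters differed by less than the counting error. Slc10a1 (chromosome 12, 80953185 to 80968705, minus strand, 6 exons) encodes NTCP, which takes conjugated bile acids from blood into hepatocytes. Its level was 349.47 TPM in the KO pool against 345.74 TPM in WT, a change of 0.015 (interval -0.012 to 0.075). Slc10a2 (chromosome 8, 5083219 to 5105287, minus strand, 6 exons) encodes ASBT, the transporter of ileal enterocytes that is also present in cholangiocytes. It was at 27.97 TPM in the KO pool against 30.27 TPM in WT, a change of -0.11 (interval -0.25 to 0.06), and its level intervals of 25.7 to 30.4 and 28.2 to 32.4 TPM overlapped. Of the listed cholangiocyte markers, Krt19 was at 1.07 and 1.06 TPM, Krt7 at 0.2 and 0.3 TPM, Cftr at 0.08 and 0.11 TPM, Sox9 at 2.21 and 2.57 TPM and Spp1 at 57.81 and 61.41 TPM in KO and WT. The sixth, Epcam, was the marker with the largest change of any list, at 0.67 and 1.51 TPM (-0.59), and from the authors' means its log2 ratio of -1.21 (interval -2.09 to -0.40, 17 and 53 estimated reads) was past the fold of 0.6. Its part in the level of Slc10a2 was not tested. The ileal markers Fabp6 and Vil1 were at 0.21 and 0.14 TPM in KO and 0.16 and 0.14 TPM in WT. Slc10a2 was thus above every listed marker of both cell types other than Spp1 and Fabp2 in both libraries. The cells that carried it were not separated here.

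The order of the members by TPM was the same in both pools, from Slc27a5 through Cyp27a1, Slc10a1, Cyp8b1, Cyp7b1, Baat, Amacr, Cyp7a1 and Slc10a2 to Cyp39a1. In WT the counting intervals of Cyp8b1 and Cyp7b1 overlapped, as did those of Cyp7a1 and Slc10a2. In KO these pairs were apart, and instead Slc10a1 and Cyp8b1 overlapped. For all 10 members none of the 100-base windows of the longest coding transcript was found in another gene, and no exon overlapped another gene, in the GENCODE annotation of GRCm38.

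**Figure D3:**
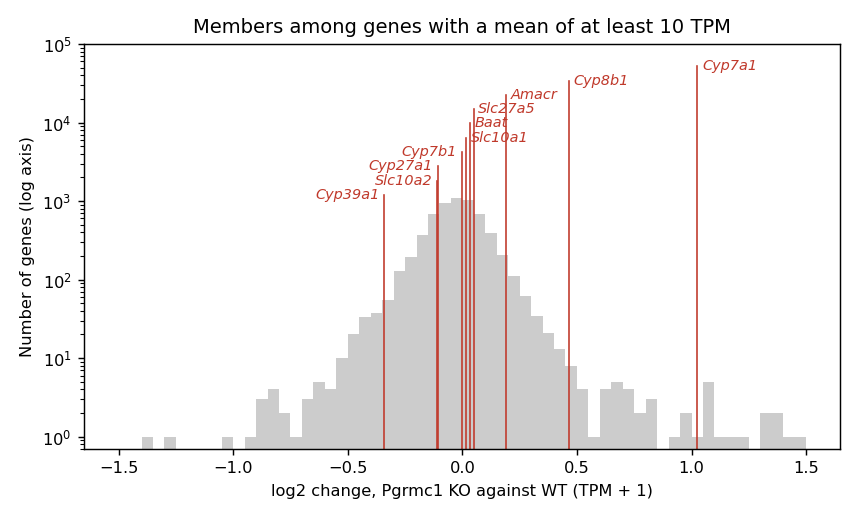
Number of genes (log axis) by log2 change between the pools for the 6235 genes averaging 10 TPM or more, with the 10 bile acid genes as lines whose heights carry no value. Most members lie inside the bulk of genes, whose 5th and 95th percentiles are -0.25 and 0.20, while Cyp7a1 and Cyp8b1 lie above it and Cyp39a1 below it, and 23 genes beyond the axis are not drawn.

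The other genes of the pathway were taken from written lists of 50 genes, of which 43 averaged 1 TPM or more. By the fold rule 0 were higher and 0 lower, 19 were above 0 and 24 below, and their median was -0.0059. These signs depend on the scaling. Cyp2c70, Hsd17b4 and Abcb4 were above 0 from the authors' means and after centring on the median gene. From the authors' means the median was 0.0063. The other synthesis enzymes ranged from -0.03 (Akr1c14, a hydroxysteroid dehydrogenase) to 0.15 (Hsd3b7, which follows 7α-hydroxylation in both routes, at 436.41 TPM in the KO pool against 394 TPM in WT). The 6 genes of peroxisomal side chain shortening ranged from -0.03 (Abcd3) to 0.056 (Slc27a2). None of these enzymes differed by as much as Cyp7a1 or Cyp8b1. Cyp46a1 and Ch25h, which make other oxysterols, were below 1 TPM in both libraries.

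The canalicular transporters, which secrete bile acids and lipids into bile, were below 0 for 6 of 6 genes with a median of -0.12, where 53.8% of all genes averaging 1 TPM or more were below 0. Of these transporters 0 passed the fold rule, and Abcb4, at -0.0054, was above 0 from the authors' means and after centring on the median gene. Abcb11, the bile salt export pump, was at 301.85 TPM in the KO pool against 326.9 TPM in WT (-0.11, interval -0.13 to -0.078). Abcg8, which forms the sterol exporter with Abcg5, was the lowest at 37.56 and 46.26 TPM (-0.29). Of the basolateral exporters, Abcc4 was at -0.19 and Abcc3 at 0.03, and Slc51a and Slc51b were under 1 TPM. Organic anion uptake carriers spanned -0.10 (Slco1a1) to 0.11 (Slco1a4). None of the exporters or carriers passed the fold rule, as neither Slc10a1 nor Slc10a2 did.

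**Figure D4:**
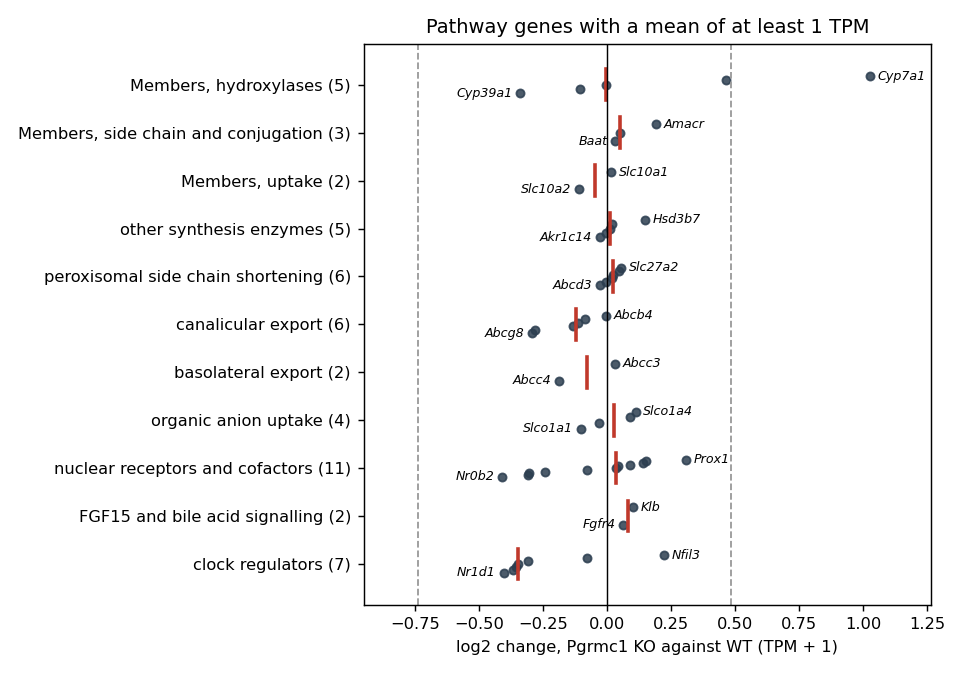
Log2 change of each pathway gene averaging 1 TPM or more, by list, with the number of genes in brackets, red bars at list medians, dashed lines at folds of 1.4 and 0.6, and the lowest and highest gene of each list named. Cyp7a1 is the only point beyond a dashed line, and 6 of 7 clock regulators lie below 0 with a median of -0.35.

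Among regulators of the members, Nr0b2 was the lowest of 11 nuclear receptors and cofactors. Nr0b2 encodes SHP, which represses Cyp7a1 and Cyp8b1, and was at 44.42 TPM in the KO pool against 59.37 TPM in WT. Its change was -0.41 (interval -0.55 to -0.25, from 592 and 1055 estimated reads), and 85 of 6235 genes, 1.36%, were as low or lower. Nr1h4, the bile acid receptor FXR, was at 84.22 and 76.29 TPM (0.14, interval 0.076 to 0.24). Nr5a2 (LRH-1), an activator of Cyp7a1, was at 33.42 and 32.41 TPM (0.043, interval -0.03 to 0.15), and Hnf4a, another activator, at 262.25 and 277.08 TPM (-0.08). Prox1, a corepressor of both, was the highest of the list at 34.15 and 27.37 TPM (0.31). Fgfr4 and Klb, which together form the hepatic receptor of FGF15, were at 0.06 and 0.10, and Fgf15 itself, a hormone of the ileum, was at 0.04 TPM in the KO pool against 0.03 TPM in WT. Fgf15 had no entry among the authors' means, so these values do not show that it was detected. None of these regulators passed the fold rule.

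None of the clock regulators passed the fold rule. Of 7 averaging 1 TPM or more, 6 were below 0, with a median of -0.35, where 53.8% of all genes at that level were below 0. Dbp, an activator of Cyp7a1 that binds the D-box, was at 20.05 TPM in the KO pool against 25.92 TPM in WT (-0.35). Nr1d1 (REV-ERBα), a clock repressor, was the lowest at 23.84 and 31.87 TPM (-0.40), and Nfil3, which binds the same sites as Dbp, was the highest at 30.1 and 25.65 TPM (0.22). Synthesis genes are rhythmic in liver, and the part of sampling time in the change of Cyp7a1 was not tested.

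Of the markers of liver cells and zones, 1 passed the fold rule, the pericentral Rhbg. Sds (-0.51) and Epcam (-0.59) had larger log2 changes but did not pass, because the downward threshold is farther from 0. The signs of the lists are given beside those of all genes averaging 1 TPM or more, of which 45.8% were above 0 and 53.8% below. Pericentral markers, of the zone around the central vein where Cyp7a1 is known to be expressed, were above 0 for 7 of 7 genes with a median of 0.11 and summed to 5853 TPM in the KO pool against 5403 TPM in WT. Rhbg, an ammonium transporter of that zone, was at 8.52 and 5.76 TPM (0.49). Periportal markers were below 0 for 6 of 6 genes with a median of -0.19, summing to 3818 and 4517 TPM, and Sds was lowest at -0.51. The general hepatocyte markers summed to 74197 and 77442 TPM, with a median of -0.07 and 5 of 5 below 0, of which Apoa1 was above 0 from the authors' means and after centring. Kupffer cell markers were above 0 for 5 of 5 (median 0.15, 181 and 161 TPM in sum), stellate cell markers below 0 for 4 of 5 (median -0.17, 214 and 234 TPM), and endothelial markers below 0 for 4 of 4 (median -0.10, 109 and 117 TPM). Cholangiocyte markers, 4 of 6 at 1 TPM or more, had a median of -0.12 and summed to 62.0 and 67.0 TPM, with Epcam lowest, as given above. Spp1 alone held 57.81 and 61.41 TPM of those sums. Of the ileal list 4 of 5 symbols were found, with Fabp2, also expressed in liver, at 140.37 and 128.09 TPM. No listed marker was at 0 TPM in either library, but these values are posterior means, which can be above 0 without a read. The ileal Fabp6 and Lct (0.01 TPM in both libraries) had no entry among the authors' means, so their values do not show that they were detected. No marker had a change as high as that of Cyp7a1 on the TPM + 1 scale, and the part of cell and zone makeup in it was not tested.

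**Figure D5:**
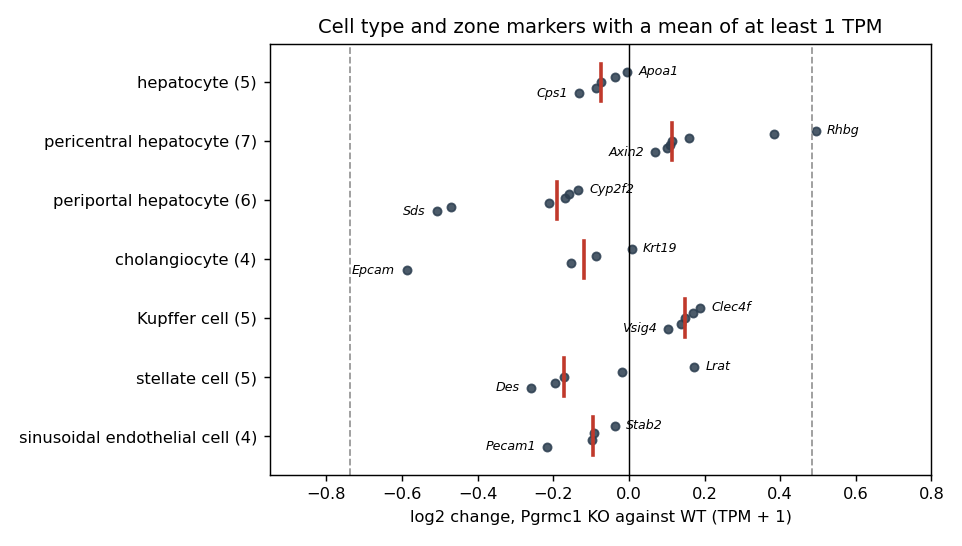
Log2 change of each cell type or zone marker averaging 1 TPM or more between the pools, with the number of genes in brackets, red bars at list medians, dashed lines at folds of 1.4 and 0.6, and the lowest and highest gene of each list named. The 7 pericentral markers lie above 0 and the 6 periportal markers below 0, and Rhbg is the only marker beyond a dashed line on this scale.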

How the data were processed

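Liver RNA of 5 male mice per genotype was pooled into 1 library per genotype, prepared with a stranded total RNA kit and sequenced as paired reads of 100 bases. Per the submitters' processing notes, CASAVA 1.8.2, RSEM 1.2.09, Bowtie and mm10 were used. The authors deposited RSEM posterior mean TPM for 24054 genes, with columns summing to 1005325 in KO and 994702 in WT, so levels depend on this scaling. RSEM shares reads that match several genes. For 16318 genes the authors also deposited, from EBSeq, a signal per library, which is its estimated reads over a size factor, given as a mean. The 4 columns of their own comparison (probabilities and fold changes) were not used. The value of 1 read was taken as the most frequent value of the means, 1.16 in KO and 0.860 in WT, and 78.4% and 75.0% of values were whole reads within 0.02, so no count test was run.

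Changes were computed on TPM with a pseudocount of 1. Genes were called when the fold reached 1.4 upward or 0.6 downward, with TPM above 0 in both libraries. These are the fold thresholds of the study, set here on TPM, and its added condition on the probability of differential expression was not applied. Medians used genes averaging 1 TPM or more. Intervals are at 95%, by Clopper-Pearson for the ratio of means, Poisson for levels and a normal approximation for ratios between members. Genes named are the 10 members, Pgrmc1, the lowest and highest gene of each pathway list and any past the fold rule, 9 regulators and transporters, the 3 genes nearest to Cyp7a1, and markers past the fold rule or at 0. Other genes named, among them Abcg5, Cyp46a1, Ch25h, Cyp2c70, Hsd17b4, Slc51a, Slc51b, Fgf15, Apoa1, Sds, Cyp2e1 and the cholangiocyte and ileal markers, were chosen after their values were seen. Members and lists were chosen with earlier results of these data known. Alternatives were other filters and folds, a pseudocount of 0.1 TPM, values rescaled after the 50 most abundant genes were left out, centring on the median gene, and use of the authors' means in place of TPM. Coordinates and promoters are from RefSeq on GRCm38, and exons from GENCODE. Computations ran in Python 3.11.15 (scipy 1.17.1, pandas 2.3.3, numpy 2.4.6; figures in matplotlib 3.10.9).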

Additional observations from a re-analysis of the deposited data

How the results depend on the processing

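Across 72 alternative computations, 0 were labelled as moved and 0 as reversed. Those that changed the filter on low values or counted genes at 0 could not differ, because all members were above 10 TPM in both libraries. The others recomputed the same 2 libraries, so the tally concerns processing only and says nothing about replication. Changes of members and ratios were judged by the half-width of their own counting interval, and medians by the median half-width of the members. Counts were judged by nearness to the main count. A reversal could be recorded only for a member past the fold rule, which was Cyp7a1 alone. Under every scaling, Cyp7a1 stayed between log2 changes of 1.03 and 1.06 and Cyp8b1 between 0.46 and 0.48. The folds of Cyp8b1 all stayed under 1.4, although its counting interval spans that threshold. Cyp39a1 stayed between -0.36 and -0.33. The change of Cyp7b1 passed from -0.0029 to 0.011 with the authors' means, and its sign is not determined. The count of members remained 1 higher and 0 lower, also at folds of 2 and 0.5 and at a fold of 1.4 and its mirror. No paired analysis was possible because only 1 pooled library was made per genotype. With RNA of 5 mice in each pool, a single mouse with a high Cyp7a1 level could not be told apart from a change in all 5. Depth limits Cyp39a1 and Slc10a2, which have the fewest estimated reads of the members.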
